A study of Mus musculus with 32 samples.

Results

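Whole slices of brain tissue from repopulated mice were compared between the lesioned (ipsilateral) and the opposite (contralateral) hemisphere 1 day after ischemic stroke. The tissue came from 4 WT mice (C57BL/6JCrl), named C2, C3, C4 and D1. They had been given BLZ945 (200 mg/kg, 7 days of treatment), and the stroke followed 8 weeks later. BLZ945 blocks the kinase of the CSF1 receptor, on which microglia and CNS-associated macrophages depend for survival, so the macrophages of these brains had been depleted and had returned in number before the stroke. Per the study, microglia came back from surviving microglia. Macrophages of the leptomeninges and perivascular spaces came back in part from survivors and in part from blood monocytes. The stroke was made by injecting thrombin into the middle cerebral artery on 1 side, through a craniotomy with the dura removed. Libraries were chosen by treatment, material and hemisphere, which gave 4 ipsilateral and 4 contralateral libraries, 1 pair per mouse, or 8 of the 32 libraries of the series. The other libraries were tissue of 4 vehicle-treated mice with the same stroke (CTL) and subdural CNS-associated macrophages (sdCAMs, the macrophages of the leptomeninges and perivascular spaces) sorted from both hemispheres of all 8 mice. Both hemispheres compared here shared the animal, the drug and the stroke. The contralateral side belonged to an operated mouse and is no unlesioned brain, and effects of the craniotomy and of the occlusion cannot be told apart. Per the study's methods both sexes were used and treatment began in young adults, but the labels give neither age nor sex for a single mouse, and they place all libraries in 1 batch.

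Total counts on genes lay between 9288717 and 11142241 per library, so that 3 counts corresponded to 0.269 to 0.323 CPM (a gene's share of the counts of its library, scaled to a common total). Such floors and the intervals given for low counts cover counting error only. Genes used by neurons, oligodendrocytes and astrocytes were abundant in all 8 libraries, which are labelled whole brain tissue. Snap25, a presynaptic fusion protein, had 2721, 3427, 2584 and 2544 CPM in the ipsilateral libraries of C2, C3, C4 and D1, the order used for all values below. The contralateral libraries had 3113, 3853, 3232 and 2866 CPM.

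An arterial occlusion deprives brain tissue of oxygen and glucose, and the dying tissue releases signals that reach astrocytes, vessels and macrophages within hours. Astrocytes around a lesion become reactive and make more intermediate filament proteins such as GFAP, under control of the IL-6 family of cytokines and their transcription factor STAT3. Vessels display selectins and chemokines to which blood leukocytes bind, while proteases open the basement membrane and macrophages switch from surveillance to engulfment.

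Of 18932 genes tested, 373 were higher in the ipsilateral hemisphere (1.97%) and 32 were lower (0.169%), at a Benjamini-Hochberg adjusted p under 0.05 and a log2 fold change beyond 0.59 in edgeR's quasi-likelihood test with the mouse as block. The genes that rose had the larger changes. Their median log2 fold change was 1.25, and 235 exceeded 1, 88 exceeded 2 and 44 exceeded 3. The genes that fell had a median of -0.68, and 1 of them, the gene model Gm10635, passed -1. Over all genes tested the median was -0.0034. Counts of called genes in each list below stand against 1.97% of all genes higher and 0.169% lower. The direction was the same in all 4 mice for 369 of the 373 genes and for 30 of the 32. The CPM of the hemispheres did not overlap for 301 of the genes that rose and 16 of those that fell, while 4.21% and 2.28% of all genes tested did not overlap in these directions. With the mice unpaired (no replicate block) 149 genes rose and 3 fell.

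**Figure D1:**
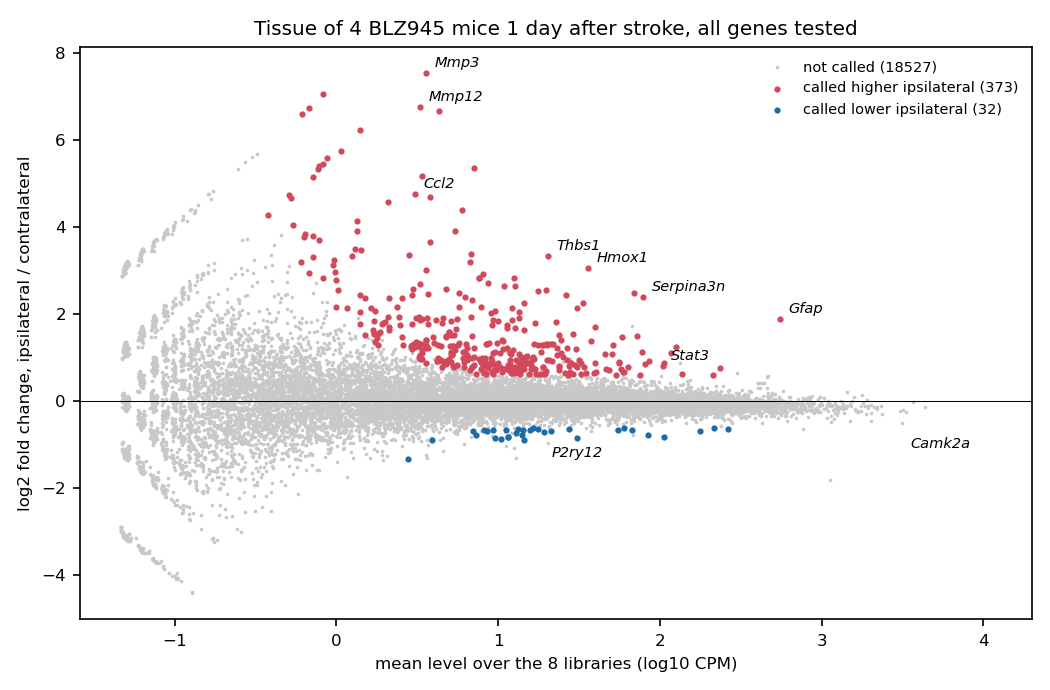
Each point is 1 of 18932 genes, with the mean level over the 8 libraries on the x axis (log10 CPM) and the log2 fold change of ipsilateral over contralateral tissue on the y axis. The 373 genes called higher (red) reach 7.55 for Mmp3, a fitted value, while the 32 called lower (blue) lie between -1.33 and -0.61, and the remaining genes are grey.

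The genes with the smallest p-values were Gfap and Serpina3n, both of reactive astrocytes, and Thbs1, a matrix protein that activates TGF-beta. Gfap, the intermediate filament of astrocytes, had 1068, 822, 805 and 800.1 CPM in the ipsilateral libraries and 298, 192, 189 and 271 CPM in the contralateral ones. Every ipsilateral value lay far above every contralateral one, and the log2 fold change was 1.90 ± 0.08 (SE, adjusted p = 7.27e-09 by edgeR). Serpina3n, a secreted serine protease inhibitor, rose from 27.1, 22.2, 23.7 and 24.7 CPM to 198, 90.8, 122 and 122 CPM, with a log2 fold change of 2.40 ± 0.11 and adjusted p = 7.27e-09 by edgeR. Thbs1 was 5.02, 1.25, 1.58 and 6.06 CPM contralaterally and 58.4, 13.2, 9.48 and 66.8 CPM ipsilaterally, and its log2 fold change was 3.34 ± 0.15 (adjusted p = 7.27e-09). Mice C2 and D1 had higher Thbs1 than C3 and C4 on both sides, yet every ipsilateral value stood above every contralateral one.

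Among 36 genes of reactive astrocytes, 28 rose, none fell and the median log2 fold change was 1.56. Vim, another filament protein, rose by 1.48 ± 0.09 on the log2 scale (adjusted p = 2.08e-07). Cd44, a hyaluronan receptor, rose by 2.64 ± 0.17 (adjusted p = 2.54e-07). Tgm1, a transglutaminase, had 0.748, 0.519, 0 and 0.0932 CPM contralaterally and 23.5, 8.34, 13.2 and 10.3 CPM ipsilaterally, a log2 fold change of 5.36 ± 0.37 (adjusted p = 6.51e-07). The long pentraxin Ptx3 rose by 4.71 ± 0.34 (adjusted p = 9.35e-07). In contrast, none of 21 genes of astrocyte identity passed both thresholds, and their median was -0.19. By the adjusted p alone 8 of them fell, where 1.77% of all genes fell and 2.77% rose by that threshold. These included the glutamine synthetase Glul, with -0.45 ± 0.06 (adjusted p = 2.45e-04), and the gap junction protein Gja1, with -0.43 ± 0.06 (adjusted p = 5.02e-04), both without overlap between the hemispheres. Aldh1l1 differed by -0.02 ± 0.07 and the water channel Aqp4 by 0.32 ± 0.08, and neither was called.

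The IL-6 family signals through the shared receptor gp130 to JAK kinases and STAT3. Of its 26 genes and targets 10 rose and none fell, with a median of 0.68. Of the ligands, Lif had 1.18, 0.208, 0.835 and 1.31 CPM contralaterally and 8.17, 2.58, 4.37 and 7.82 CPM ipsilaterally and rose by 2.7 ± 0.29 (adjusted p = 4.24e-05). Il11 had 0.107, 0.208, 0.65 and 0.839 CPM and 15.5, 0.894, 2.08 and 10.1 CPM and rose by 3.66 ± 0.52 (adjusted p = 6.20e-04). Clcf1, a further ligand, rose by 2.37 ± 0.32 (adjusted p = 4.62e-04). Il6 itself had 2.09, 0, 0 and 3.51 CPM ipsilaterally and 1 count in all 4 contralateral libraries. Mice C3 and C4 had no Il6 count on either side, and its call (adjusted p = 0.0146) was lost without C2, at an adjusted p of 0.0507, and without D1, at 0.228. Osm, the ligand oncostatin M, was not called (adjusted p = 0.0999). Among the receptors, Osmr, which binds oncostatin M, went from 6.2, 6.13, 5.2 and 5.22 CPM to 32.1, 35.3, 30.5 and 36.7 CPM in a narrow range on each side. Its log2 fold change was 2.56 ± 0.12 (adjusted p = 8.40e-09 by edgeR), while Il6ra, Il6st and Lifr were not called, with log2 fold changes of 0.25, 0.28 and 0.10. Downstream, Stat3 rose by 0.81 ± 0.07 (adjusted p = 3.57e-06). Its targets Socs3, a feedback inhibitor of the pathway, and Bcl3 rose by 2.64 ± 0.27 (adjusted p = 2.42e-05) and 3.02 ± 0.28 (adjusted p = 8.69e-06).

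Of 31 genes of IL-1 and TNF signalling, 9 rose and none fell (median 0.86). The receptor antagonist Il1rn changed most, from 3 counts in all 4 contralateral libraries to 347 ipsilaterally, or 9.98, 3.58, 3.85 and 16.9 CPM. The ratio was 121 with a 95% exact counting interval of 41 to 588, and the edgeR adjusted p was 1.77e-07. The agonist Il1b was lower in number of counts, with 2.95, 1.49, 0.833 and 4.91 CPM ipsilaterally and 5 counts in all contralateral libraries, a ratio of 21.5 (8.92 to 67.6, adjusted p = 0.00127). In mice C3 and C4 alone it was not called (edgeR adjusted p = 0.137). Tnf and Il1a had more counts ipsilaterally in every mouse but were not called, with adjusted p = 0.119 and adjusted p = 0.0941 by edgeR. The receptors Tnfrsf1a, which binds TNF, and Tnfrsf12a, which binds TWEAK, rose by 1.56 ± 0.11 (adjusted p = 8.72e-07) and 1.19 ± 0.17 (adjusted p = 7.05e-04). Nfkbiz, a regulator of NF-kappaB target genes, rose by 1.17 ± 0.20 (adjusted p = 0.003).

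Chemokines direct leukocytes to the vessel wall. Of 26 chemokines tested 13 rose and none fell by both thresholds, and the median was 1.89. Ccl2, the ligand of the monocyte receptor CCR2, had 10.3, 1.99, 2.5 and 8.82 CPM ipsilaterally and 0.427, 0.104, 0.186 and 0.0932 CPM contralaterally. C2 and D1 were the highest mice, the hemispheres did not overlap, and the log2 fold change was 4.76 ± 0.41 (adjusted p = 5.53e-06). Ccl12, a further CCR2 ligand, was 0.962, 0.208, 0.279 and 0.746 CPM contralaterally and 14.1, 7.95, 8.96 and 14.7 CPM ipsilaterally, with 4.39 ± 0.26 (adjusted p = 1.74e-07). Ccl4, a chemokine made by macrophages, had 1 contralateral count and 113 ipsilateral counts, a ratio of 118 (95% exact counting interval 20.7 to 4700). The neutrophil attractants Cxcl1 and Cxcl3 had 62 and 55 ipsilateral counts against 1 and 0. Cxcl1 thus had a ratio of 64.7 (11.2 to 2600). Cxcl3 was 19.1-fold above a floor of 3 counts over the contralateral group (the exact two-sided 95% counting interval began at 15). Ccl11, an attractant of eosinophils, had a ratio of 64.7 (11.2 to 2600). Cxcl10, an interferon-induced ligand of CXCR3, rose by 3.36 ± 0.34 (adjusted p = 2.86e-05). Chemokines of the resting brain were not higher, as Cxcl12 and the neuronal Cx3cl1 had log2 fold changes of -0.40 (adjusted p = 0.0287) and -0.22 (adjusted p = 0.0532).

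**Figure D2:**
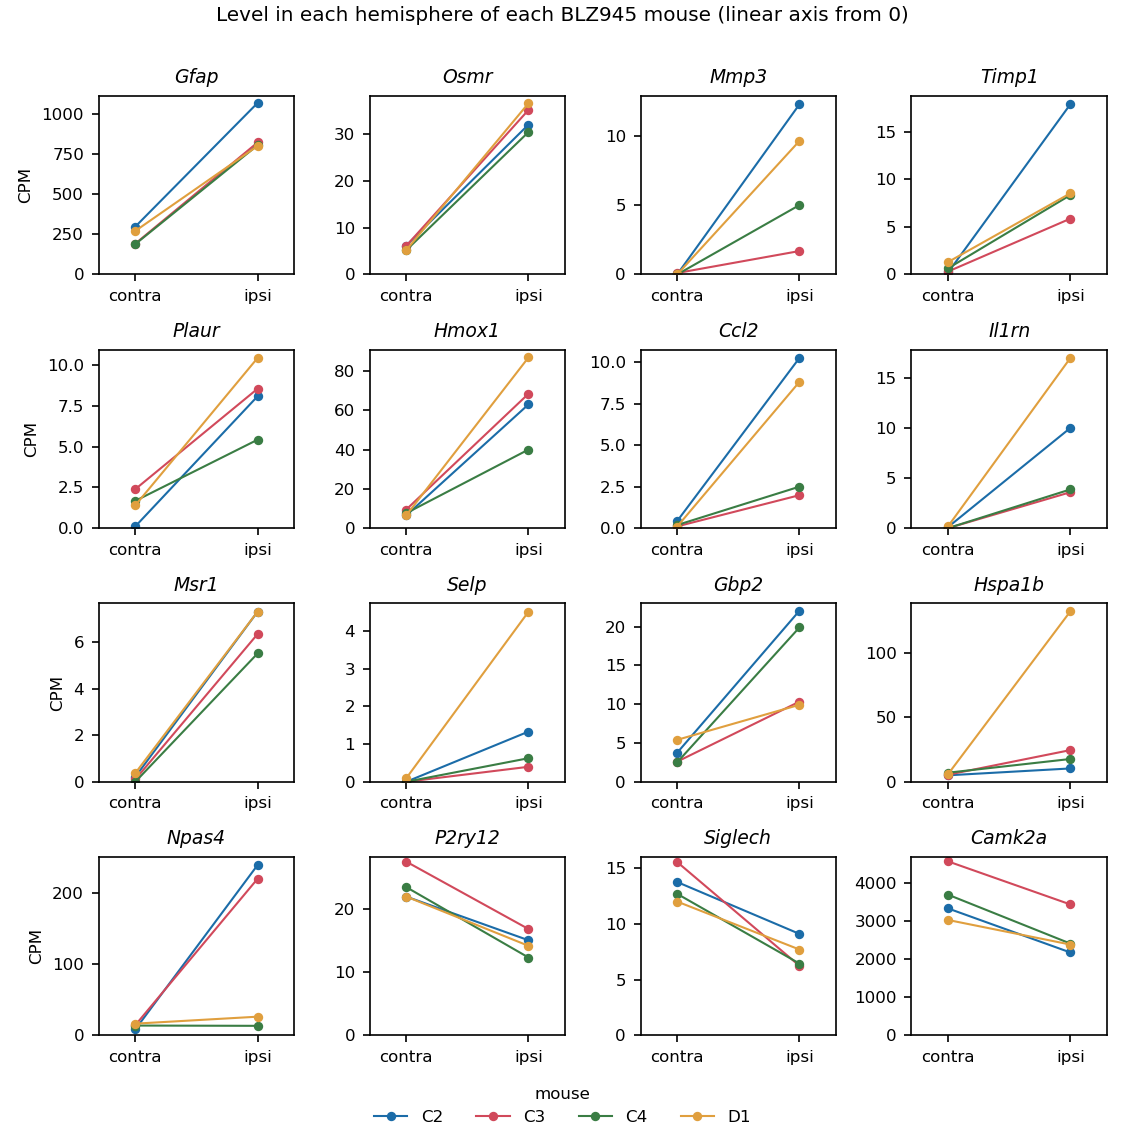
Level in CPM (linear axis from 0) of 16 genes in the contralateral and ipsilateral hemisphere, with 1 line per mouse. Lines rise in all 4 mice for Gfap, Osmr, Mmp3, Timp1, Plaur, Hmox1, Ccl2, Il1rn, Msr1, Selp, Gbp2 and Hspa1b, rise steeply in C2 and C3 for Npas4, and fall in all 4 mice for P2ry12, Siglech and Camk2a.

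Proteases and their inhibitors included Mmp3, the gene with the largest fitted change of all genes called. Mmp3 encodes stromelysin 1, which degrades basement membrane and activates other metalloproteinases, and had 12.3, 1.69, 5.0 and 9.62 CPM ipsilaterally. Over all 4 mice this was 290 counts against 1 contralateral count, a ratio of 303 (95% exact counting interval 53.9 to 12000, adjusted p = 1.61e-06 by edgeR). Mmp12, the macrophage elastase, had 5.7, 6.85, 2.71 and 10.8 CPM ipsilaterally and 263 counts against 2, a ratio of 137 (37.6 to 1140, adjusted p = 9.35e-07). The lowest values were those of C3 for Mmp3 and of C4 for Mmp12. Timp1, an inhibitor of metalloproteinases, rose from 0.214, 0.312, 0.65 and 1.31 CPM to 17.9, 5.86, 8.33 and 8.52 CPM, by 3.92 ± 0.37 (adjusted p = 1.44e-05). The sheddase Adam8 rose by 2.84 ± 0.25 (adjusted p = 6.24e-06) and Adamts9, which cleaves versican, by 2.04 ± 0.22 (adjusted p = 3.82e-05). In all, 7 of 30 genes of this group rose, none fell, and the median was 0.18. The gelatinases Mmp2 and Mmp9 were not called, with 0.23 ± 0.42 and 0.65 ± 0.28.

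Plasminogen activation cleaves fibrin and matrix. Of 22 genes of this system and of coagulation 10 rose, with a median of 1.19. Plaur, the receptor of urokinase, had 0.107, 2.39, 1.67 and 1.4 CPM contralaterally and 8.08, 8.54, 5.42 and 10.4 CPM ipsilaterally. The hemispheres did not overlap. Plaur rose by 2.57 ± 0.38 on the log2 scale (adjusted p = 7.79e-04) and the urokinase Plau itself by 1.92 ± 0.29 (adjusted p = 0.00114), whereas tissue plasminogen activator, Plat, was not called (0.24 ± 0.10, adjusted p = 0.219). Leaving out C2 lowered the count of this group to 6. Matrix genes rose with smaller changes. Of 39 collagens and basement membrane genes 14 rose (median 0.37), among them Tnc, the glycoprotein tenascin C, by 1.87 ± 0.25 (adjusted p = 4.00e-04), Col3a1 by 1.59 ± 0.20 (adjusted p = 2.69e-04), the basement membrane collagen Col4a1 by 1.14 ± 0.12 (adjusted p = 2.87e-05) and the fibronectin gene Fn1 by 1.11 ± 0.10 (adjusted p = 1.03e-05). Without C2, and also without C4, 9 of these genes were called.

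RefSeq promoters of 287 of the 373 genes that rose and of 13862 of the genes tested were searched on both strands for letters bound by transcription factors of injury (250 bases before to 50 after each start, build GRCm38.p6). TGANTCA, the AP-1 motif, was in 17.4% of promoters of the genes that rose and in 6.93% of all. TTCNNNGAA, a STAT motif, was in 12.2% and 8.22%. The NF-kappaB forms GGGACTTCC, GGGATTTCC and GGGA followed by either CTTTCC or ATTTCC were in 3.83% and 2.17%. TGANNNNGC, the core of the antioxidant response element, which can overlap the AP-1 motif, was in 46.7% and 47.3%, and the heat shock element, TTCNNGAA followed by NNTTC, in 0.348% and 0.613%. Of 21 promoters of genes that fell, 4 held the STAT motif, 7 the antioxidant core and none the other motifs. These shares are a description of letters, and binding was not measured. The stretches just before the start of 7 genes described in this report follow 5′ to 3′ on the gene's strand, with the motif in capitals. They are shown because Mmp3, Mmp12 and Cd68 carry the AP-1 letters, the motif whose share differed most from that of all promoters, and because Cxcl1 and Cxcl3 carry the same NF-kappaB letters at nearly the same distance from the start. The Mmp3 stretch lies at chr9:7445742-7445821, plus strand, and its AP-1 letters begin 46 bases before the start. The Mmp12 stretch (chr9:7347294-7347373, plus strand) precedes the inner of 2 listed starts and has them 44 bases before it. Cd68 (chr11:69666171-69666330, minus strand) has 2 copies, 149 and 24 bases before the start.
Mmp3: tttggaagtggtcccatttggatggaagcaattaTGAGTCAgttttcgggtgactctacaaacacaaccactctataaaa
Mmp12: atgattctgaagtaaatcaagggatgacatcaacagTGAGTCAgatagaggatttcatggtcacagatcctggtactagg
Cd68: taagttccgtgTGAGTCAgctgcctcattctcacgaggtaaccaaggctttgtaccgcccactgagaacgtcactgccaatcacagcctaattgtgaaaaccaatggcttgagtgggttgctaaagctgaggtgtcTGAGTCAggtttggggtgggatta
The next 3 stretches carry NF-kappaB forms, 71 bases before the start of Cxcl1 (chr5:90891165-90891244, plus strand), 73 before Cxcl3 (chr5:90786021-90786100, plus strand) and 103 before Cxcl10 (chr5:92348890-92348999, minus strand). Cxcl10 also holds AP-1 letters 74 bases before its start, left in lower case.
Cxcl1: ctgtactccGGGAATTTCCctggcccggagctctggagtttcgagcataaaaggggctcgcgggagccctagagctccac
Cxcl3: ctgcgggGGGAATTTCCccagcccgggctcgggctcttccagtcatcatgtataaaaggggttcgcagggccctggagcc
Cxcl10: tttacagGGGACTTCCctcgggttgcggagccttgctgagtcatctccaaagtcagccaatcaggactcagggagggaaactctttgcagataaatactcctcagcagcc
The stretch of Icam1 (chr9:21015860-21015939, plus strand) has a STAT motif 42 bases before the start.
Icam1: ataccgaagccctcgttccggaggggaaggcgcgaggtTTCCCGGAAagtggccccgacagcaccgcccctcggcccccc

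More genes of adhesion than of the barrier rose. Of 24 genes of endothelial activation and leukocyte adhesion 7 rose and 1 fell (median 0.47). This list is not of endothelial genes alone. The 7 included Cd44, also counted among reactive astrocyte genes, and the 1 that fell was Selplg, also counted among homeostatic microglia genes. Sele and Selp, the selectins on which leukocytes roll, had 1 contralateral count each. Sele had 2.76, 0.397, 0.521 and 4.81 CPM ipsilaterally, a ratio of 89.7 (95% exact counting interval 15.7 to 3590, adjusted p = 0.00118), and Selp had 1.33, 0.397, 0.625 and 4.51 CPM, a ratio of 72 (12.5 to 2880, adjusted p = 0.00105). D1 was the highest mouse for both, and neither was called in mice C3 and C4 alone (adjusted p = 0.637 and 0.327). Icam1, to which leukocyte integrins bind, rose from 1.82, 3.22, 2.32 and 2.89 CPM to 11.6, 5.06, 6.46 and 10.8 CPM, by 1.67 ± 0.27 (adjusted p = 0.00175). Vcam1 overlapped between the hemispheres and was not called, with 0.24 ± 0.10 (adjusted p = 0.249). Of 25 genes of the blood-brain barrier 2 rose and none fell by both thresholds, and the median was -0.01. By the adjusted p alone 4 of them fell and 3 rose, where 1.77% of all genes fell and 2.77% rose. The tight junction genes Cldn5 and Ocln had log2 fold changes of 0.11 ± 0.08 and -0.06 ± 0.19. Cdh5, the cadherin of endothelial junctions, rose by 0.83 ± 0.12 (adjusted p = 7.55e-04), and Kdr, a VEGF receptor, by 0.62 ± 0.14 (adjusted p = 0.0161). The call of Kdr was lost without C2 (adjusted p = 0.116) and without C4 (adjusted p = 0.0574). Angpt2, an antagonist of the receptor TIE2, and Cd93 rose by 1.84 ± 0.27 (adjusted p = 8.76e-04) and 1.31 ± 0.14 (adjusted p = 2.95e-05), among 4 of 22 genes of angiogenic endothelium that were called. Of 25 genes of pericytes, smooth muscle and fibroblasts 3 rose (Col1a1, Dcn and Foxc1, median 0.22), and without C4 only 1 did.

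Of 25 genes of homeostatic microglia 3 fell and 1 rose, and the median was -0.07. P2ry12, the ADP receptor of microglia, was 21.9, 27.4, 23.4 and 21.9 CPM contralaterally and 15, 16.8, 12.3 and 14.1 CPM ipsilaterally, a log2 fold change of -0.70 ± 0.11 (adjusted p = 0.00137 by edgeR). Siglech, a sialic acid receptor, went from 13.8, 15.6, 12.7 and 12 CPM to 9.12, 6.26, 6.46 and 7.72 CPM, by -0.87 ± 0.16 (adjusted p = 0.0043). Neither overlapped between the hemispheres, and both were lower ipsilaterally in all 4 mice. Selplg, the ligand of P-selectin, fell by 0.64 on the log2 scale (adjusted p = 0.00986), a call lost without C3 (adjusted p = 0.0646) and without C4 (0.0533). Ecscr was the member that rose (1.29 ± 0.29, adjusted p = 0.0163), a call lost without C2 (adjusted p = 0.0721). The other 21 tested members were not called. Among them, Tmem119 differed by -0.11 ± 0.11, the fractalkine receptor Cx3cr1 by 0.25 ± 0.07 and Csf1r, the target of BLZ945, by -0.07 ± 0.08. In bulk tissue, fewer cells of a type and less RNA per cell cannot be told apart.

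By contrast, 22 of 35 genes of disease-associated and phagocytic macrophages rose and none fell (median 1.31). Msr1, a scavenger receptor, had 0.214, 0.104, 0 and 0.373 CPM contralaterally and 7.32, 6.36, 5.52 and 7.32 CPM ipsilaterally. The ipsilateral values were close to each other, and the log2 fold change was 5.19 ± 0.41 (adjusted p = 2.54e-06). Lgals3, galectin 3, rose by 3.38 ± 0.33 (adjusted p = 1.58e-05), the LPS co-receptor Cd14 by 2.84 ± 0.28 (adjusted p = 2.18e-05) and the lysosomal Cd68 by 1.29 ± 0.17 (adjusted p = 4.14e-04). Spp1, osteopontin, rose by 2.15 ± 0.15 (adjusted p = 8.72e-07) in all 4 mice, although the hemispheres overlapped because C2 and D1 had 15.2 and 15.1 CPM contralaterally and C3 only 14.8 CPM ipsilaterally. The C-type lectin receptors Clec4n and Clec4e had no contralateral count at all. Clec4n was 23.3-fold and Clec4e 17.4-fold above a floor of 3 counts over the group, and their exact two-sided 95% counting intervals began at 18.4 and 13.6. Apoe, the lipid carrier of glia, fell by 0.31 (adjusted p = 0.00253), below the fold change threshold. Of 35 lysosomal genes 3 rose (Cd63, Cd68 and Ctsc), and the median was 0.07. In a list of 11 genes around CSF1 receptor signalling 4 rose, namely Csf2rb, a subunit of the GM-CSF receptor and not of CSF1R (1.88 ± 0.26, adjusted p = 5.38e-04), the transcription factors Spi1 (1.32 ± 0.20, adjusted p = 0.00128) and Runx1 (1.29 ± 0.29, adjusted p = 0.0174), and the ligand Csf1 (0.65 ± 0.11, adjusted p = 0.00268). Runx1 was no longer called without C2, C3 or C4, at adjusted p of 0.0758, 0.0619 and 0.0532, and Csf1 passed only the p threshold without D1, with a log2 fold change of 0.56. Il34, the other CSF1R ligand, differed by -0.03 ± 0.09.

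Receptors for opsonins and microbial products rose in part. Of 23 Fc and engulfment receptors 8 rose (5 without C2), of 22 complement genes 5 and of 24 Toll-like receptors and adaptors 4, with medians of 0.07, 0.36 and 0.28. Fcgr4, an activating Fc receptor, rose by 2.36 ± 0.44 (adjusted p = 0.00554). The anaphylatoxin receptors C5ar1 and C3ar1 rose by 2.49 ± 0.26 (adjusted p = 3.62e-05) and 2.17 ± 0.24 (adjusted p = 4.92e-05) and the component C4b by 1.08 ± 0.09 (adjusted p = 3.57e-06). C1qa rose by less than 0.59 (0.34, adjusted p = 0.00759). Tlr2 rose by 2.17 ± 0.26 (adjusted p = 1.20e-04), whereas Tlr4 was not called (adjusted p = 0.491). For antigen presentation, Cd74, the invariant chain of MHC class II, rose by 1.41 ± 0.19 (adjusted p = 4.82e-04) and H2-Ab1 by 1.36 ± 0.28 (adjusted p = 0.0111), 2 of 14 genes. In the phagocyte NADPH oxidase, which makes superoxide, 4 of 10 subunits rose, among them the catalytic Cybb by 1.95 ± 0.33 (adjusted p = 0.00217) and its partner Cyba by 0.91 ± 0.18 (adjusted p = 0.00742). Without C2, and without C3, 2 were called.

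Markers of cells that could have entered the slices differed in level. For 29 neutrophil genes 19 passed the filter on low counts and 3 rose (S100a9, Lcn2 and Clec4d, with 1 gene of the group called without C2), with summed levels of 29 to 48.9 CPM ipsilaterally and 23.8 to 30.7 CPM contralaterally. Among them, the granule gene S100a9 had 1.71, 0.397, 1.46 and 1.8 CPM ipsilaterally and 0, 0, 0 and 0.373 CPM contralaterally (adjusted p = 0.0156), a call lost without C2 (adjusted p = 0.0707) and without C4 (0.0657). S100a8 was not called (adjusted p = 0.409), and 10 members, Ly6g among them, were at 0 or below the filter. Of 21 genes of infiltrating monocytes 6 rose (3 without C2), and the 21 summed to 463 to 662 CPM ipsilaterally and 411 to 468 CPM contralaterally. The 6 included the matrix protein Thbs1, Fn1, also counted among matrix genes, and F10, also counted among coagulation genes. Fn1 alone had 121 to 198 CPM ipsilaterally and 66 to 85.9 CPM contralaterally. Arg1 and Ccr1 rose by 3.5 ± 0.67 (adjusted p = 0.00644) and 3.35 ± 0.58 (adjusted p = 0.00276), and the call of Arg1 was lost without C2 (adjusted p = 0.139). The defining Ly6c2 and Ccr2 stayed below 3 CPM in every library and were not called (adjusted p = 0.735 and adjusted p = 0.0958). Of 20 genes of border macrophage identity 4 rose (Dab2, F13a1, Fxyd5 and Stab1, median 0.84), with sums of 109 to 155 CPM ipsilaterally and 70.8 to 95.2 CPM contralaterally. F13a1 was no longer called without C2, C4 or D1, at adjusted p of 0.0618, 0.0547 and 0.0558, while Mrc1 and Cd163 differed by 0.51 ± 0.25 and 0.20 ± 0.31. Of 18 T, B and NK cell genes tested none rose and Ighm fell, and of 8 red blood cell genes none was called, with sums of 289 to 360 CPM ipsilaterally and 287 to 391 CPM contralaterally. What part these cells had in the changes above was not tested.

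**Figure D3:**
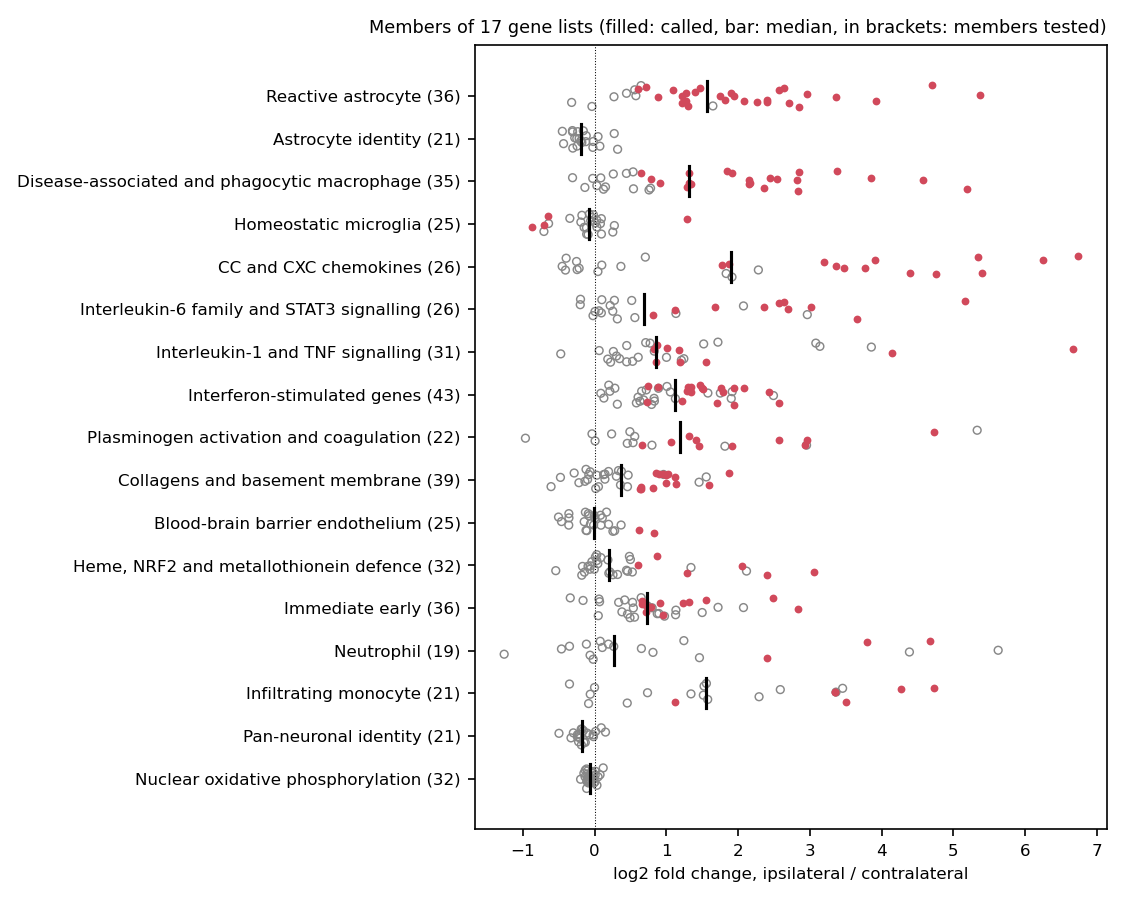
Log2 fold change of each tested member of 17 gene lists, with called genes filled, other genes open and the list median as a bar. The medians run from 1.89 for chemokines and 1.56 for reactive astrocytes down to -0.19 for astrocyte identity, and homeostatic microglia hold called genes on both sides of 0.

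Defence against free heme and oxidants rose in part, with 6 of 32 genes and a median of 0.21. Hmox1, the enzyme that breaks down heme, was 6.52, 9.45, 7.61 and 6.53 CPM contralaterally and 63, 68.4, 40 and 86.9 CPM ipsilaterally. Its log2 fold change was 3.06 ± 0.16 (adjusted p = 2.50e-08 by edgeR), and the lowest ipsilateral value, that of C4, was over 4 times the highest contralateral one. The metallothionein Mt2 rose by 1.29 ± 0.09 (adjusted p = 9.35e-07 by edgeR), while Mt3, another metallothionein, differed by -0.14 ± 0.06. Slc7a11, the cystine transporter, rose by 0.87 ± 0.14 (adjusted p = 0.00144). Of other targets of NRF2, Nqo1 and Gclm had log2 fold changes of -0.17 and 0.21, and neither was called. Lcn2, which binds iron siderophores, rose by 2.40 ± 0.23 (adjusted p = 1.49e-05).

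Interferon-stimulated genes were positive in all 43 cases tested, where 9342 of all 18932 genes tested were. Of the 43, 19 rose by both thresholds, with a median of 1.13. Ifitm1 and Ifitm3, membrane proteins that restrict viral entry, rose by 2.57 ± 0.35 (adjusted p = 4.75e-04) and 1.79 ± 0.13 (adjusted p = 8.72e-07). The GTPases Gbp2 and Iigp1, induced by interferon gamma, rose by 2.08 ± 0.26 (adjusted p = 2.31e-04) and 1.95 ± 0.41 (adjusted p = 0.0111). Ifit1 rose by 1.5 ± 0.24 (adjusted p = 0.00178) and the transcription factor Irf7 by 1.47 ± 0.25 (adjusted p = 0.00276). Gbp2 had 3.74, 2.6, 2.51 and 5.41 CPM contralaterally and 22, 10.3, 19.9 and 9.92 CPM ipsilaterally, with C2 and C4 the highest mice.

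Immediate early genes separated the mice. Of 36 tested 12 rose, and the median within-mouse log2 ratio was 1.33 in C2, 1.02 in C3, -0.12 in C4 and 0.15 in D1. Fos had 206, 159, 23.9 and 44.1 CPM ipsilaterally and 12.8, 19, 26.3 and 42.9 CPM contralaterally, so it was far higher ipsilaterally in C2 and C3 and nearly equal in C4 and D1. It was not called over the 4 mice (1.72 ± 0.51, adjusted p = 0.0731), but it was called without C4 (2.33, adjusted p = 0.00771) and without D1 (2.39, adjusted p = 6.69e-04). Fosb went the same way, with 147, 188, 16.1 and 24.5 CPM and 15.9, 25, 22.7 and 26.2 CPM. Npas4, a factor induced by neuronal activity, had 239, 219.6, 13.4 and 26.3 CPM and 8.55, 14.4, 13.8 and 16.5 CPM and was called (adjusted p = 0.0188), but not without C3 (adjusted p = 0.136). The number of genes of this group that rose was 8 without C2 or without C3, 24 without C4 and 23 without D1. Atf3, a stress-induced factor, rose in every mouse, from 1.18, 2.39, 1.58 and 2.05 CPM to 16, 10.8, 6.87 and 20.4 CPM (2.84 ± 0.25, adjusted p = 6.82e-06). Nptx2, a synaptic pentraxin, rose by 1.24 ± 0.14 (adjusted p = 8.37e-05) and was highest in C3. Ptgs2, cyclooxygenase 2, had 84.6, 99.8, 13.5 and 28.7 CPM ipsilaterally and 8.87, 13.3, 7.61 and 9.42 CPM contralaterally, again highest in C2 and C3 (2.26 ± 0.27, adjusted p = 1.21e-04). Of 20 genes of prostaglandin and leukotriene synthesis it and the phospholipase Pla2g4a rose, the latter not without C2 (adjusted p = 0.158) or C3 (0.0714).

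The inducible HSP70 genes were highest in D1. Hspa1b, the inducible HSP70, had 10.4, 24.6, 17.7 and 133 CPM ipsilaterally and 5.02, 5.5, 7.06 and 5.97 CPM contralaterally, and its near-identical copy Hspa1a had 7.7, 10.4, 8.02 and 57.4 CPM and 2.99, 3.74, 3.25 and 3.92 CPM. Reads of these copies can be split between them by the counting. Both were higher ipsilaterally in all mice, most of all in D1, with log2 fold changes of 2.44 ± 0.39 (adjusted p = 0.00156) and 2.16 ± 0.34 (adjusted p = 0.00141). The small chaperone Hspb1 rose by 1.75 ± 0.23 (adjusted p = 3.73e-04), and 6 of 28 chaperones rose in all. The constitutive Hspa8 differed by 0.07 ± 0.06. In the integrated stress response Ddit3 and Atf4 differed by 0.21 ± 0.10 and 0.07 ± 0.07 and were not called, while 3 of 30 genes rose (Atf3, Cebpb and Ppp1r15a, the last with 0.53 without D1, under the fold change threshold). Cdkn1a, the cell cycle inhibitor p21, rose by 0.87 ± 0.11 (adjusted p = 2.69e-04 by edgeR), the 1 called gene of 26 in apoptosis and p53 response (3 without C4). This was 3.85% of the group, where 1.97% of all genes tested rose. Of 42 cell cycle genes the replication genes Uhrf1, Mcm3 and Mcm6 rose, with 1 gene of the group called without C2, and Mki67 and Top2a were not called (adjusted p = 0.48 and adjusted p = 0.535).

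**Figure D4:**
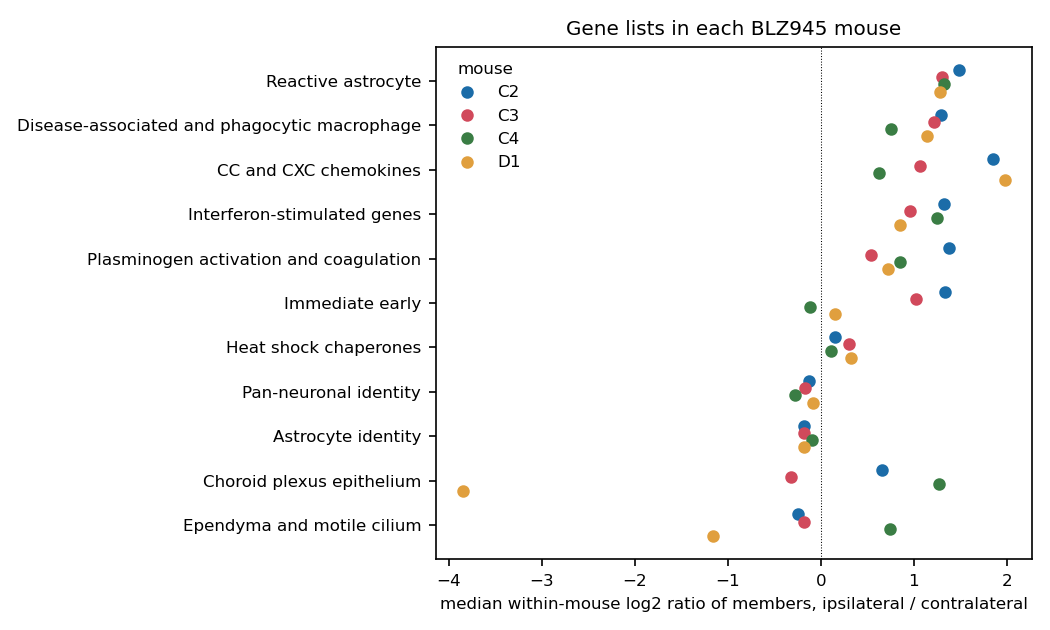
Median within-mouse log2 ratio (ipsilateral over contralateral, prior count of 2) of the members of 11 gene lists, 1 point per mouse. Reactive astrocyte genes lie between 1.29 and 1.49 in all 4 mice, immediate early genes lie high in C2 and C3 and near 0 in C4 and D1, and choroid plexus genes spread from -3.85 in D1 to 1.26 in C4.

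Neuronal genes had small changes. Of 21 pan-neuronal genes none passed both thresholds and 6 fell at an adjusted p under 0.05, with a median of -0.18. Camk2a, a synaptic kinase, had 2184, 3448, 2418 and 2392 CPM ipsilaterally and 3342, 4580.4, 3704 and 3038 CPM contralaterally, lower in all 4 mice, with -0.50 ± 0.06 (adjusted p = 9.39e-05). The corresponding value was -0.21 ± 0.05 for Snap25 and -0.10 ± 0.07 for Rbfox3, the NeuN gene. Medians of glutamate receptors, GABA receptors and voltage-gated channels were -0.09, -0.07 and -0.12, with no gene called in any of the 3 groups. By the adjusted p alone 3 of 22, 1 of 19 and 5 of 41 of them fell, where 1.77% of all genes did. By the same threshold 2 of the GABA genes rose, and 2 of 11 genes of oligodendrocyte precursors fell. Myelin genes (median 0.01, Mbp -0.17 ± 0.07), precursors of oligodendrocytes (-0.07), cholesterol synthesis (0.05) and nuclear genes of oxidative phosphorylation (-0.06) also had no called gene. Among glycolysis and hypoxia genes the hexokinases Hk2 and Hk3 rose by 0.71 ± 0.18 (adjusted p = 0.0357) and 1.94 ± 0.28 (adjusted p = 7.40e-04), the median was 0.03, and Ldha differed by 0.17 ± 0.06. The call of Hk2 was lost without C3 or C4, at adjusted p of 0.118 and 0.142.

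Genes of particular brain structures differed between the slices. Ttr, the transthyretin of choroid plexus epithelium, had 4005, 1.49, 1.77 and 36 CPM ipsilaterally and 2227, 0.623, 0.371 and 2674 CPM contralaterally, so that it was abundant on both sides in C2, mainly on the contralateral side in D1, and close to the floor in C3 and C4. The study's methods mention removal of the choroid plexus before macrophages were sorted, and the tissue libraries are labelled whole brain tissue. How much choroid plexus was taken out of each slice, and which regions a slice held, cannot be told apart. The 17 choroid plexus genes summed to 4719, 32.6, 80.2 and 100.2 CPM ipsilaterally and to 2687, 37.9, 54.5 and 3152 CPM contralaterally. None of them, and none of 23 ependymal genes, was called, and their medians were -0.68 and -0.31. Tcf7l2, a gene of thalamus, had 74.3, 4.07, 11.1 and 48.7 CPM ipsilaterally and 81.6, 4.78, 10.4 and 95.7 CPM contralaterally and likewise was higher in C2 and D1 on both sides. In C3 and C4 alone, a choice made after the values were seen, 334 genes rose and 68 fell, and 238 and 28 of them were among the 373 and the 32. There, 27 reactive astrocyte genes, 17 interferon-stimulated genes, 16 genes of phagocytic macrophages and 6 chemokines rose, against 28, 19, 22 and 13 over all 4 mice. This fit held fewer mice, so calls lost for that reason and calls lost through the regions in a slice cannot be told apart. What part the regions in a slice had in the other results was not tested. Wfs1, a marker of hippocampal CA1 and amygdala and the 1 called gene of 23 regional markers (2 without D1), rose by 0.76 ± 0.09 (adjusted p = 1.50e-04 by edgeR) in all 4 mice. The 1 gene was 4.35% of these markers, where 1.97% of all genes tested rose.

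The 32 genes that fell belonged to no single list. Cadps2, a factor of vesicle priming, had 57.6, 106, 80.7 and 63 CPM ipsilaterally and 129, 162, 130.1 and 116 CPM contralaterally, without overlap, and changed by -0.83 ± 0.08 (adjusted p = 2.52e-05). Ighm, the heavy chain of IgM, had 15.5, 33.1, 20.9 and 18.7 CPM and 35, 56.8, 34.6 and 31.7 CPM and was lower ipsilaterally in every mouse (-0.85 ± 0.10, adjusted p = 1.01e-04). Lamp5, the 1 called gene of 20 markers of interneurons and striatal neurons (2 without C4), fell by 0.67 (adjusted p = 0.00288), and without C2 by 0.49, under the fold change threshold. Rxfp1, the relaxin receptor, and Kirrel2, an adhesion protein, fell by 0.84 (adjusted p = 0.00391) and 0.82 (adjusted p = 0.0031). Prodh, the proline dehydrogenase, had 24.8, 21.2, 18.9 and 21.4 CPM ipsilaterally and 36.6, 33.4, 30.8 and 33.7 CPM contralaterally, without overlap, and fell by 0.65 (adjusted p = 5.65e-04). The calls of Or10ad1 and Spag5 were lost without C3 (adjusted p = 0.218 and 0.122) and without C4 (0.164 and 0.0902).

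The same contrast in the tissue of CTL mice shows whether these genes moved without prior BLZ945. For CTL mouse A3 the hemispheres are named differently in the count table and in the sample labels, so values are given without A3 and with its hemispheres exchanged. Of the 373 genes that rose in BLZ945 mice, 370 were positive in the 3 remaining CTL mice, where 49% of all genes tested were. Of the 373, 121 were called up there, where 0.676% of all genes were. With A3 exchanged these were 369 and 164, where 0.938% of all genes were called, and with A3 as in the count table none was. The median log2 fold change of these genes was 0.85 in CTL both without A3 and with A3 exchanged, 0.45 with A3 as in the count table, and 1.25 in BLZ945 mice. The genes were selected for their change in BLZ945 mice, so these medians are a description. In CTL mice without A3 the log2 fold change was 1.69 for Gfap, 2.81 for Hmox1, 3.03 for Socs3 and -0.72 for P2ry12. The values in BLZ945 mice were 1.90, 3.06, 2.64 and -0.70. Other genes lay further apart, in either direction. Il1rn and Ifitm1 had 4.40 and 0.71 in CTL mice without A3, beside 6.67 and 2.57 in BLZ945 mice. Cxcl10 was higher in CTL mice without A3, with 5.02 beside 3.36. It had 3.76 with A3 exchanged and 2.07 with A3 as in the count table. With A3 exchanged, Il1rn and Ifitm1 had 4.81 and 0.98. These further genes were picked after their values were seen. When the difference between the responses of BLZ945 and CTL mice was tested gene by gene, none of 18968 genes passed in edgeR with A3 as in the count table or exchanged, nor any of 18946 without A3. At an unadjusted p under 0.05 there were 726, 451 and 406 genes, each a smaller share of the genes tested than the 0.05 that chance alone gives. With so few mice, the lack of a called gene does not show that the responses were equal. DESeq2 called none either, with A3 as in the count table or exchanged.

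**Figure D5:**
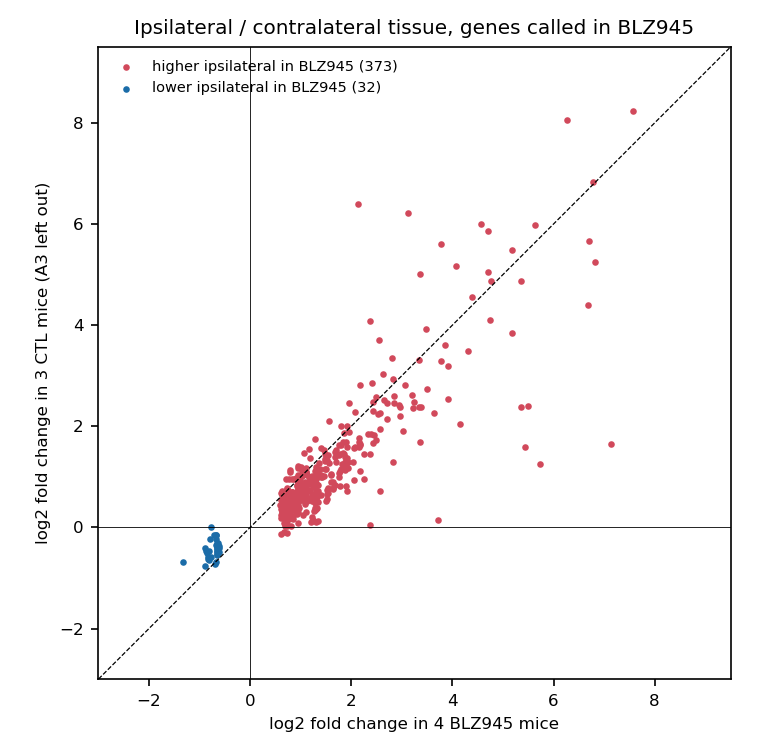
Log2 fold change of ipsilateral over contralateral tissue in 4 BLZ945 mice (x axis) and in 3 CTL mice without A3 (y axis) for the 373 genes called higher (red) and the 32 called lower (blue) in BLZ945 mice, with the line of equality dashed. Nearly all points share their sign in both, 370 of 373 and 31 of 32, and the genes were chosen by the x values. Of all genes tested, 49% were positive in these CTL mice.

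In sdCAMs sorted from BLZ945 mice C3, C4 and D1, the same contrast gave 52 genes up (0.292%) and 535 down (3%) of 17808 tested. Of the 373 genes that rose in tissue, 365 were tested there, 195 were positive, 13 were called up and 37 were called down. Msr1 and C5ar1 were among the 13, and the endothelial Cdh5 and the collagen Col4a1 among the 37. The tight junction genes Cldn5 and Ocln fell as well, by 4.68 and 8.33 on the log2 scale (edgeR adjusted p = 8.37e-04 and 0.00103). Cldn5 had 269 to 473 CPM contralaterally, with C2 kept there, and 10.6 to 17.5 CPM ipsilaterally. What part RNA of other cell types in the sorted libraries had in these falls was not tested.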

How the data were processed

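Count tables were deposited by the authors, with 1 table for tissue and 1 for sdCAMs. Per the labels and the methods of the study, total RNA was sequenced as 50-base single reads from Nextera XT libraries, which keep no strand, so a gene and its antisense partner cannot be told apart. The submitters' processing notes name bcl2fastq 2.20, STAR 2.7.11a, featureCounts 2.0.8 and DESeq2 1.46.0. A single genome build is not given in the sources used here, so coordinates are those of the RefSeq promoter table alone.

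The values used were raw counts for 33280 genes as deposited by the authors. Genes summing to 4 counts or more over the 8 libraries (18932) were tested with edgeR 4.0.16 (R 4.3.3, limma 3.58.1) by quasi-likelihood with TMM scaling, mouse as block and hemisphere as effect, two-sided, with Benjamini-Hochberg adjustment over all genes tested. SE is the log2 fold change divided by the root of F. A gene was called at an adjusted p under 0.05 and a log2 fold change beyond 0.59. Hemispheres of 1 mouse share the animal, and their deviations from the hemisphere means correlated with r from 0.214 to 0.677 over 13299 genes (different mice -0.617 to 0.566). The study states no block. Replicates differed by 4.68 to 28.6 times the sampling variance, so none was a repeat deposit. CTL mice were compared by an interaction term over all 16 tissue libraries, and sdCAMs by the same paired test in C3, C4 and D1, since the ipsilateral sdCAM library of C2 is labelled as degraded RNA. Scripts were tested on simulated data. Alternatives were no block, DESeq2 1.42.0, its size factors, other filters and thresholds, and each mouse left out.

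Members and gene lists were chosen with earlier results of these data known. The lists share members, so their counts are not independent. Lcn2 counts among reactive astrocyte, heme defence and neutrophil genes, Cxcl10 among astrocyte genes and chemokines, and Cd14 among astrocyte, macrophage and Toll-like receptor genes. Cd44 counts among astrocyte and adhesion genes, and Selplg among adhesion and microglia genes. Fn1 counts among matrix and monocyte genes, and F10 among coagulation and monocyte genes. The named genes were the 20 with the largest rise and the 10 with the largest fall among called genes with a mean of at least 1 CPM in the higher hemisphere and 1 sign in all 4 mice, without Gm and Rik models. To these were added up to 5 called members of each list with the largest changes at that level, the first 2 members of each list, and Vcam1, Selp, Csf1r, P2ry12 and Mrc1, which made 203 genes. Of the other genes in the text, Clcf1, Ifitm3, Irf7, Osmr, Serpina3n, Stat3, Prodh and Gm10635, and the further genes given as not called (such as Camk2a, Glul, Gja1, Apoe, Tnf, Osm, Tmem119, Nqo1 and Tcf7l2), were chosen after their values were seen. Some genes are not reported here.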

Additional observations from a re-analysis of the deposited data

Results flagged for a closer look

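Within-mouse log2 ratios (ipsilateral over contralateral, prior count of 2) of 201 of the named genes were checked for a mouse far from the other 3 by Dixon's test. Such a mouse was found for 14 genes, while chance alone gives such a mouse in about 1 of 20 genes. For choroid plexus genes D1 stood apart, with -6.21 for Ttr where the other mice had 0.847 to 1.79, and -5.42 for Folr1 where they had 0.45 to 0.898. The summed choroid plexus markers moved with this, at 100.2 CPM ipsilaterally and 3152 CPM contralaterally in D1.

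D1 also stood above the others for the chaperone Hspa1a (3.81, others 1.25 to 1.43), the Fc receptor Fcgr1 (1.68, others 0.669 to 0.824), the NRF2 target Osgin1 (2.3, others 1.52 to 1.61) and the claudin Cldn5 (0.197, others 0.0677 to 0.0881). C4 stood below for the stress cytokine Gdf15 (0.609, others 3.21 to 3.47), Lcn2 (1.52, others 2.51 to 2.59) and the factor Cebpb (0.295, others 1.3 to 1.47), and above for Iigp1 (3.57, others 1.23 to 1.46). C3 stood below for the collagen Col4a1 (0.522, others 1.28 to 1.38) and the inhibitory receptor Fcgr2b (0.297, others 1.16 to 1.27), and above for the upper-layer factor Cux2 (0.436, others -0.483 to -0.331). C2 stood below for Ighm (-1.17, others -0.777 to -0.72). Causes were not tested.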

How the results depend on the processing

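Over the settings run, the rise was larger in number than the fall in every one. With the mice unpaired (no replicate block) 149 genes rose and 3 fell, all among the genes called with the block, and reactive astrocyte, phagocytic macrophage, interferon and heat shock genes then counted 20, 13, 8 and 0. DESeq2 called 298 up and 21 down, edgeR over all 16 tissue libraries 173 and 12 with A3 left as deposited, a log2 fold change beyond 1 235 and 1, and the adjusted p alone 525 and 336. DESeq2 size factors (377 and 33), no filter (423 and 40), filterByExpr (304 and 22) and A3 exchanged (378 and 36) moved neither count by over 1.5 times. Leaving out 1 mouse gave 300 to 429 up and 36 to 56 down, and the 56 came without D1. C3 and C4 alone, chosen after the values were seen, gave 334 and 68. Of 140 named genes that were called, 67 were called without the block, 126 by DESeq2, and 120, 126, 128 and 131 without C2, C3, C4 and D1.

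Ttr was not called over the 4 mice, but was -5.46 without C2 (edgeR adjusted p = 1.35e-05) and 0.92 without D1 (7.05e-06), and Folr1 was -2.66 without C2 and 0.87 without D1 (0.033). In C3 and C4 alone Ttr was 1.72 and not called (0.345). Without the block and with contralateral C2 kept, 143 sdCAM genes rose and 874 fell. The interaction called no gene in any setting run. Genes with few contralateral counts are limited by depth, since 28 of the genes that rose had 3 counts or fewer in every contralateral library. Causes of these shifts were not tested, and some settings held fewer mice or genes.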
